A study of Mus musculus with 20 samples.

Results

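The livers of diabetic mice fed phloridzin at 0.1% of the diet were compared with the livers of untreated mice. The members were chosen by their sample titles alone, with no measured value: 5 arrays of streptozotocin (STZ) mice on the 0.1% phloridzin diet and 5 arrays of mice without STZ on the control diet, 10 of the 20 arrays of the series. Each array held the liver RNA of 1 mouse, and its value for a probe set was a linear signal. The other 10 arrays, from STZ mice on the control diet and STZ mice on 0.5% phloridzin, were used to set the 0.1% group beside its diabetic neighbours.

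STZ enters the insulin-producing beta cell through a glucose transporter and kills it, so the animal loses insulin and blood glucose rises. Insulin normally holds down glucose production, amino acid breakdown and fat burning in the liver and drives the synthesis of fatty acids and sterols. Phloridzin, a compound of apple bark, blocks the sodium-glucose cotransporters of gut and kidney, and is known for lowering blood glucose by letting glucose pass into the urine.

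All mice were male BALB/c, 6 weeks old on arrival and kept 3 to a cage, with the dark period placed in the daytime. The STZ mice received STZ in citrate buffer at 185 mg/kg into the abdominal cavity and entered the experiment with a non-fasting blood glucose of 330 to 590 mg/dL. Phloridzin was mixed at 0.1% into their AIN93G feed, which they ate for 14 days. The untreated mice ate the plain AIN93G diet and had no injection, so the STZ, its injection, the phloridzin and the diabetes itself cannot be told apart in this comparison. Of the 6 mice in each group, 5 had an array, and the time of day of killing and the cage of each mouse are not given in the sources used here. Which 5 of the 6 mice were used is also not given. Differences are in log2(signal + 16), folds are folds of signal + 16, and a gene was called when its adjusted p (limma, Benjamini-Hochberg over 12941 genes) was under 0.05. Where the lower group's mean signal was at or below 17.1, the highest median signal of any array, both signals are given without a fold. Values for single livers are in the order of replicate 1 to 5, which only names the mice.

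The array of 0.1% replicate 4 stood apart from the other 0.1% arrays. Its control transcripts added to every sample were bright: bioB read 1404 against 233 to 348 on the other 0.1% arrays and 287 to 390 on the untreated arrays, and cre read 33369 against 10401 to 14732 and 12191 to 15462. Its abundant hepatocyte transcripts were bright as well, with a median of the 9 measured hepatocyte markers 0.87 log2 units above the untreated mean, against -0.28 to 0.18 on the other 0.1% arrays. Without this array the count of called genes was 1664 and not 2168. The deposited control probe set for the 5′ end of Gapdh read 6107 to 9180 in untreated and 9235 to 12958 in 0.1% livers. Its two-sided exact permutation p was 0.00794 (0.0317 without replicate 4), the smallest of the control transcripts and ratios compared. The 3′ to 5′ ratio of Gapdh was 0.698 to 1.07 in untreated and 0.676 to 0.726 in 0.1% livers (two-sided exact permutation p = 0.0317, and 0.103 without replicate 4). The Actb ratio was 1.62 to 2.48 and 1.68 to 2.13 (two-sided exact permutation p = 0.77). The part of RNA quality in the results was not tested. Albumin, transthyretin and apolipoprotein genes, which define hepatocytes, were among the highest signals on all 10 arrays.

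Of the 12941 genes measured, 2168 (16.8%) were called, 1005 higher (7.77%) and 1163 lower (8.99%) in 0.1% than in untreated livers. Changes of 2-fold or more were fewer, 173 higher and 135 lower. For 1703 genes (13.2%) no 0.1% liver overlapped any untreated liver, and 1457 of these were called. The median difference over all genes was -0.04, and 95% intervals reached a median of 0.30 log2 units (1.23-fold) to either side. The 0.1% livers were more spread than the untreated ones, with a median SD per gene of 0.231 against 0.178 log2 units. The other diabetic groups were spread as well, at 0.212 for STZ and 0.218 for STZ plus 0.5% phloridzin. Leaving out 1 array at a time gave 1493 to 2619 called genes, the fewest without 0.1% replicate 5 (721 higher and 772 lower) and the most without 0.1% replicate 1.

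The 5 diabetic livers of the 0.1% group differed in how far they had moved. Over the genes called without the array in question, the median change in the called direction was 0.29 log2 units in replicate 1, 0.47 in replicate 2, 0.54 in replicate 3, 0.62 in replicate 4 and 0.67 in replicate 5. Replicate 1 still lay on the called side for 88.5% of those genes, and replicate 5 for 98.8%. The mean correlation with the untreated arrays over genes was 0.9775 for replicate 1 and 0.9503 for replicate 5. In the other diabetic groups it ran from 0.9585 to 0.976 (STZ) and from 0.9514 to 0.9785 (STZ plus 0.5% phloridzin). Some of the gene lists described next had medians away from 0 in all 5 livers, and others had a median near or past the untreated level in replicate 1.

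**Figure D1:**
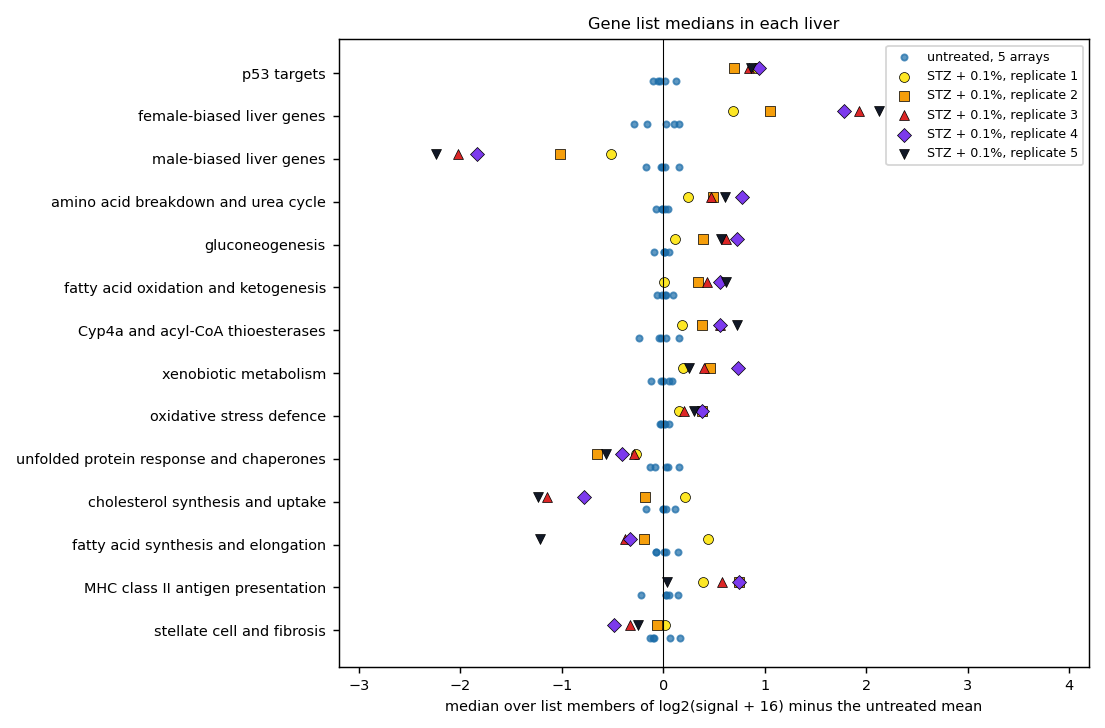
Median over the members of each gene list of log2(signal + 16) minus the untreated mean (x axis), for each untreated liver (small blue points) and each liver of the STZ plus 0.1% phloridzin group (large symbols, 1 per mouse). The p53 targets lie between 0.70 and 0.94 in all 5 diabetic livers, whereas fatty acid synthesis genes run from 0.44 in replicate 1 to -1.21 in replicate 5.

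The 12 largest rises were taken from called genes whose 0.1% and untreated livers did not overlap, so the choice fixed that separation. Among them were enzymes that methylate, hydroxylate or sulfate small molecules. Nicotinamide N-methyltransferase (Nnmt), which methylates vitamin B3, read 65.03, 44.5, 30.6, 24.03 and 35.04 in the untreated livers and 749.8, 1232, 2438, 2016 and 3439.6 in the 0.1% livers. Every 0.1% liver was over 10 times the highest untreated liver, replicate 1 the lowest of them. The difference was 5.01 ± 0.47 (SE, n = 5 and 5), 32.3-fold, with an adjusted p of 8.34e-07. The steroid 17-alpha-hydroxylase Cyp17a1 read 28.9, 38.03, 48.5, 43.1 and 68.1 in untreated and 339, 1083, 1224, 1355 and 2717 in 0.1% livers, 18.8-fold higher (adjusted p = 4.77e-05). Replicate 5 was the highest. Cyp2c39, which oxidises retinoic acid and drugs, read 199, 278, 328, 521 and 359 in untreated and 2112, 2433, 4266, 4261 and 4239 in 0.1% livers (9.86-fold, adjusted p = 5.41e-07). Replicates 3, 4 and 5 were nearly equal and the other 2 lower.

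The fatty acid omega-hydroxylase Cyp4a14 read 5.803, 6.85, 16.7, 33.1 and 9.79 in untreated and 1014, 964, 4055, 4074 and 6103 in 0.1% livers (adjusted p = 8.96e-05). It went from about background to among the brighter genes, and replicates 1 and 2 stood well below the other 3. Low livers also occurred in the other diabetic groups, at 48.9 in STZ replicate 1 and 734 and 807 in 0.5% replicates 2 and 4. The rest of those groups read 2491 to 5867. The estrogen sulfotransferase Sult1e1, which inactivates estrogen, had mean signals of 2.61 ± 3.38 in untreated and 391 ± 325 in 0.1% livers (SD, n = 5; adjusted p = 0.00544). It read 54.02, 57.7, 554, 502 and 789 in the single 0.1% livers, so that replicates 1 and 2 formed a low pair. The same livers of the other diabetic groups were low, at 5.64 (STZ) and 53.6 and 76.8 (0.5%), against 168 to 1073 in the rest. The cilium gene Cplane1 rose from 13.6 ± 8.38 to 728 ± 334 (adjusted p = 2.18e-07). Its log2 difference was 4.60 by the brightest probe set and only 1.67 by the mean of its probe sets (adjusted p = 1.75e-06). Cyp2b9 (18.98-fold), the organic anion transporter Slco1a4 (9.68-fold), Cyp2c38 (7.92-fold) and the ubiquitin protease Usp2 (8.62-fold) also rose, all with adjusted p of 0.000361 or less. The other rises among the 12 were Mt1 and Mt2.

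The 12 largest falls, chosen in the same way, included genes of male-specific liver proteins and of lipid proteins. The steroid dehydrogenase Hsd3b5, a male-specific gene, read 6044, 5673, 5846, 5285 and 6986 in the untreated livers and 2669, 629, 65.5, 199 and 8.45 in the 0.1% livers. The untreated values lay within a narrow band, and the 0.1% values spread widely below it. That none overlapped was fixed by the choice of genes. The difference was -4.65 ± 1.28 (SE), with an adjusted p of 0.0162. It was -5.53 without 0.1% replicate 1 and -3.83 without 0.1% replicate 5, where the adjusted p was 0.0557 and the call ended. Elovl3, an elongase of very long fatty acids, read 6227, 5634, 5824, 4603 and 5252 in untreated and 2353, 1045, 192, 357 and 61.4 in 0.1% livers (-3.67 ± 0.90, adjusted p = 0.00842). Replicate 1 was again nearest to the untreated livers, and the difference was -4.28 without 0.1% replicate 1 and -3.05 without 0.1% replicate 5. The fatty acid carrier Fabp5 read 4130.3, 2784, 3699, 1807 and 3261 against 1021, 415, 278, 274 and 199.9, a 7.93-fold fall (adjusted p = 5.49e-05).

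Genes of the serpin family and others fell with them. The pseudogene Serpina4-ps1 fell from 799.8 ± 126 to 19.97 ± 13.4 (SD, n = 5; 23.5-fold, adjusted p = 8.09e-06), with every 0.1% liver at 43.4 or less. Its sequence family is large, so signal shared with related serpin genes cannot be separated here. Serpina12, whose product vaspin is a protease inhibitor, fell from 1418 ± 398 to 124 ± 158, with a log2 difference of -4.04 by the brightest probe set and -2.38 by the mean of its probe sets. C6, a part of the complement pore, fell 4.91-fold, and G0s2, an inhibitor of the fat lipase ATGL, fell 4.98-fold. Ugt2b38 fell from 215 ± 122 to 25.3 ± 18.7, Serpina9 from 106 ± 28.4 to 6.42 ± 8.67 and Rnase2a from 190.4 ± 184 to 6.0002 ± 3.598. The remaining falls, of Cyp4a12a (-2.73, adjusted p = 0.0383) and the transporter Slco1a1 (-2.64, adjusted p = 0.0272), were less firm. The call of Cyp4a12a ended without any 1 of the 5 untreated arrays or of 0.1% replicates 3, 4 and 5 (adjusted p up to 0.12). That of Slco1a1 ended without untreated replicate 1 or 0.1% replicates 3, 4 or 5 (adjusted p up to 0.091), and its difference was -2.03 without 0.1% replicate 5.

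**Figure D2:**
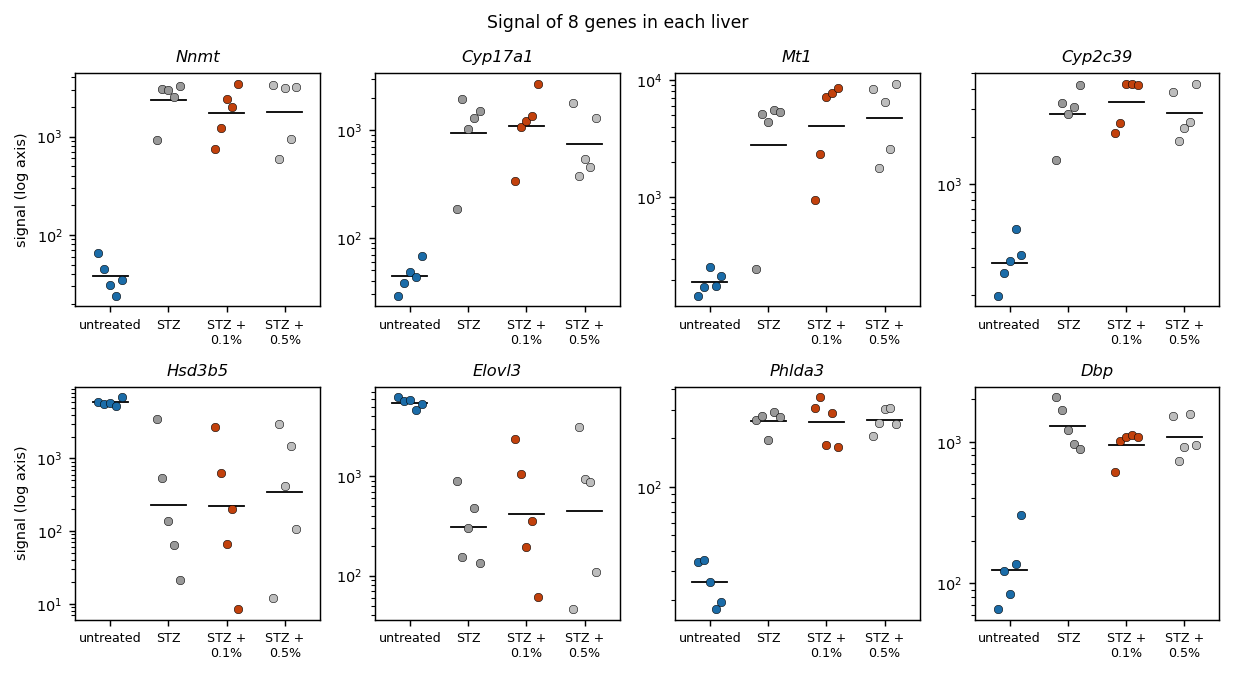
Signal (y axis, log scale) of 8 genes in each liver of the 4 groups, 5 livers per group in the order of replicate 1 to 5, with the horizontal line at the mean of log2(signal + 16) turned back to signal. Untreated livers are blue, STZ plus 0.1% phloridzin livers orange, and the grey points are the STZ and STZ plus 0.5% groups. For these 8 genes no orange point overlaps the blue ones, which the choice of genes fixed for all but Phlda3 and Dbp. Hsd3b5 runs from 2669 to 8.45 within the orange group.

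The gene lists show where the calls were dense. Shares of members called can be read against 7.77% higher and 8.99% lower over all genes. By count, female-biased liver genes (14 of 19 higher), amino acid breakdown (24 of 38 higher), fatty acid oxidation (18 of 31 higher) and p53 targets (12 of 21 higher) led on the upper side. On the lower side stood male-biased liver genes (17 of 21), the unfolded protein response (16 of 34), the growth hormone axis (6 of 16) and cholesterol synthesis (6 of 21). These lists were not tested as sets.

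**Figure D3:**
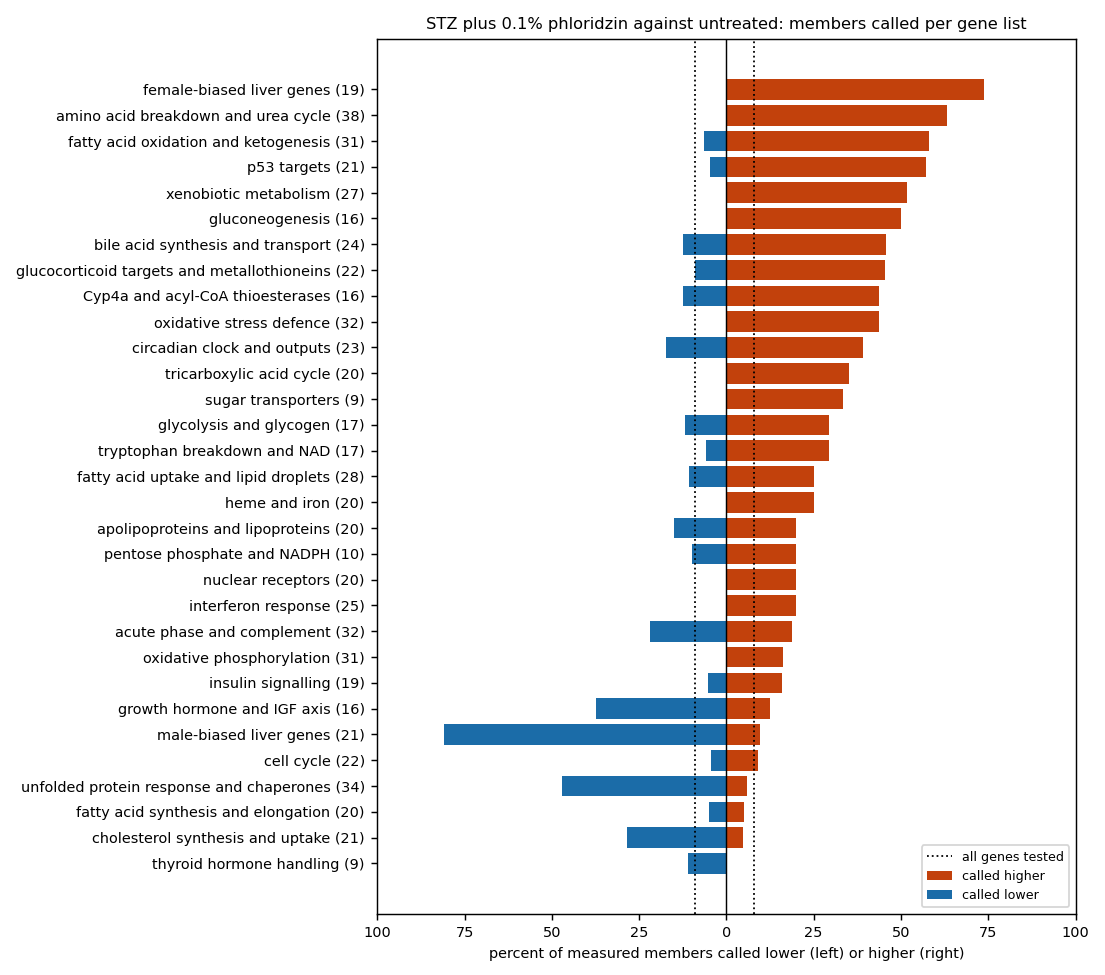
Percent of the measured members of each of 31 gene lists that were called higher (orange, right) or lower (blue, left) in STZ plus 0.1% phloridzin than in untreated livers, with the number of measured members in brackets. Dotted lines mark the shares over all genes tested, 7.77% higher and 8.99% lower.

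Targets of the tumour suppressor p53, which stops the cell cycle and starts repair or death after DNA damage, had a list median of 0.70 to 0.94 in each of the 5 diabetic livers. Of 21 measured, 12 were higher and 1 lower, and the median was 0.96 against -0.04 over all genes. Phlda3, an inhibitor of the kinase Akt, read 34.3, 35.1, 25.6, 17.5 and 19.4 in untreated and 309, 358, 181, 286 and 176 in 0.1% livers. It was 6.43-fold higher (adjusted p = 1.12e-08), the joint smallest p of all genes named here. Cyclin G1 (Ccng1) read 360.4, 316, 389, 348 and 463 in untreated and 957, 969, 971, 1018 and 984 in 0.1% livers (2.56-fold, adjusted p = 3.56e-06). The 5 diabetic values of Ccng1 lay closer together than the 5 untreated ones, with an SD of 23.6 against 55.6.

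The cell cycle inhibitor p21 (Cdkn1a) read 157, 125, 236, 158 and 96.3 in untreated and 677, 557, 772, 713 and 687 in 0.1% livers (4.22-fold, adjusted p = 7.06e-05). All 5 diabetic livers lay above 2 times the highest untreated liver, and replicate 2 was the lowest of them. The exonuclease Aen rose 2.81-fold, the RNA-binding protein Zmat3 2.24-fold and the death receptor Eda2r from 4.603 ± 2.87 to 53.9 ± 12.4, all with no overlap and with adjusted p of 1.57e-06 or less. The polo-like kinase Plk2 rose by 1.38 with its brightest probe set and by 0.63 with the mean of its probe sets. Perp, a p53 target of cell junctions, was the member that fell, from 748 ± 67.3 to 468 ± 38.2 (-0.66 ± 0.11, adjusted p = 0.000418). Against STZ alone the difference of Phlda3 was -0.02 (95% interval -0.39 to 0.36) and that of Cdkn1a 0.10 (-0.49 to 0.69).

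Genes that differ between male and female mouse liver moved towards the female pattern in these male mice. The male liver pattern is kept by pulses of growth hormone. Of 21 male-biased genes 17 were lower and 2 higher (median -1.77), and of 19 female-biased genes 14 were higher and none lower (median 1.60). Without 0.1% replicate 5 only 10 male-biased genes were called lower, and 13 were without 0.1% replicate 4. The list median per liver was -0.52, -1.01, -2.02, -1.83 and -2.24 for the male-biased genes and 0.68, 1.06, 1.93, 1.79 and 2.12 for the female-biased genes, in the order of replicate 1 to 5. All 5 livers had moved, replicates 1 and 2 the least in both lists. Part of the female-biased list, such as Acot3, Acot4 and Cd36, is also known to respond to fatty acids through PPAR alpha.

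Cyp7b1, an oxysterol hydroxylase that is male-biased in liver, read 7609, 6318, 6033, 4325 and 5880.0 in untreated and 2345, 2040.3, 1453, 1301 and 1493 in 0.1% livers (adjusted p = 0.000336). All 0.1% values lay below all untreated ones, and the difference was -1.81 by the brightest probe set and -1.22 by the mean of probe sets. Cyp2b9, female-specific, read 9.61, 55.8, 59.6, 282 and 123 in untreated and 703, 1668, 1942, 1989 and 2960.4 in 0.1% livers. Untreated replicate 4 held the highest untreated level of Cyp2b9, Cyp2c39, Cyp2c38 and Slco1a4. The 2 male-biased genes that rose were Rnase4 and Mup3, and Mup3 belongs to a family of near-identical genes whose signals cannot be separated. Its difference was 0.60 by the brightest probe set and -0.18 by the mean of its probe sets.

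In the growth hormone and IGF axis 6 of 16 genes were lower and 2 higher. The growth hormone receptor Ghr read 5451, 5447, 5571, 5124 and 6259.6 in untreated and 4384, 3825, 3268, 3719 and 2580.2 in 0.1% livers (-0.66 ± 0.14, adjusted p = 0.00382). The groups did not overlap, and replicate 5 was the lowest. Igf1, the growth factor that growth hormone induces in liver, was not called (5353, 4714, 4420.0, 4720.2 and 4729.7 against 4792, 5569.6, 5029, 5947 and 4683; 0.12, adjusted p = 0.463, and -0.03 by the mean of its probe sets). Bcl6, a repressor that growth hormone pulses sustain in males, fell 2.94-fold (adjusted p = 0.000336) and Onecut1, a liver transcription factor, fell from 84.6 ± 35.7 to 10.6 ± 2.91. The epidermal growth factor receptor Egfr fell by 1.94 with the brightest probe set and by 0.91 with the mean of probe sets.

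Of the binding proteins that carry IGF in blood, Igfbp2 rose and Igfbp3 fell. Igfbp2 read 765, 1220.1, 1269, 1213 and 1216 in untreated and 2239, 2804, 4584, 5515 and 5361 in 0.1% livers (3.41-fold, adjusted p = 0.00114). Igfbp3 fell from 78.5 ± 11.2 to 40.3 ± 11.8 (adjusted p = 0.00268). Igfbp1, which insulin represses, read 654, 874, 1438, 1110.1 and 914 and 1865, 1315, 5508, 5484 and 8074, with replicate 2 inside the untreated range, replicate 1 above it and the other 3 far above it. Its adjusted p was 0.023, and the call ended without untreated replicate 1 or 0.1% replicates 3, 4 or 5 (adjusted p up to 0.0749).

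The gluconeogenesis list leaned to the higher side. Of 16 gluconeogenesis genes 8 were called higher and none lower (median 0.38), but only 5 without 0.1% replicate 3, 4 or 5. The 8 include Igfbp1 and the aminotransferases Got1, Gpt and Tat. Pyruvate carboxylase Pcx rose only 1.21-fold, and its groups overlapped (adjusted p = 0.0183). Slc37a4, which carries glucose-6-phosphate into the endoplasmic reticulum, read 1285, 1365, 1227, 1173 and 1147 in untreated and 1849.6, 1771, 2647, 2441 and 2445 in 0.1% livers (1.77-fold, adjusted p = 0.00141). Its groups did not overlap. The coactivator Ppargc1a, which switches on fasting genes, read 34.3, 42.8, 44.2, 43.6 and 36.2 and 72.5, 68.7, 140.4, 128 and 197 (2.303-fold, adjusted p = 0.00858), again lowest in replicates 1 and 2. The glucose-6-phosphatase gene G6pc was not called (0.39 ± 0.24, adjusted p = 0.296), nor was the fructose bisphosphatase Fbp1 (0.30 ± 0.12, adjusted p = 0.0825). Pck1, a classical enzyme of the pathway, read 4807, 5108, 4823, 4680.2 and 3889 in untreated and 4593, 6586, 7134, 9755 and 7065 in 0.1% livers (adjusted p = 0.039). The ranges overlapped through replicate 1, and the call ended without any of the 5 untreated arrays or any of 0.1% replicates 2, 3, 4 and 5, with an adjusted p of up to 0.117.

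Among genes of sugar transport and storage some were called. Of 9 sugar transporters 3 were higher: the main liver glucose transporter Slc2a2 read 3229, 3106, 2921, 3248 and 2973 in untreated and 3722, 3789, 4169, 3855 and 4015 in 0.1% livers, a small 1.26-fold rise with no overlap (adjusted p = 0.0047). The urate and sugar transporter Slc2a9 rose 2.06-fold. The cotransporters that phloridzin blocks gave little signal, with means of 16.3 ± 5.19 and 14.8 ± 4.93 for Slc5a1 and 24.3 ± 11.3 and 39.5 ± 27.6 for Slc5a2 (SD, n = 5), neither called. Of 17 genes of glycolysis and glycogen 5 were higher and 2 lower (median 0.05). The lower count was 1 without untreated replicate 2, 3, 4 or 5 or 0.1% replicate 4 or 5, and 6 without 0.1% replicate 1. Glycogen synthase Gys2 rose 1.91-fold (adjusted p = 0.00414), the regulatory protein Gckr 1.44-fold (adjusted p = 0.00822) and Ugp2, which makes the UDP-glucose for glycogen, 1.52-fold (adjusted p = 0.000436). The branching enzyme Gbe1 fell 1.303-fold with no overlap (adjusted p = 0.0161). Ppp1r3g, a glycogen-targeting subunit of protein phosphatase 1, read 14.5, 19.3, 43.9, 11.8 and 22.5 in untreated and 48.5, 33.1, 334, 279 and 612 in 0.1% livers (4.95-fold, adjusted p = 0.041). Its replicate 2 lay inside the untreated range, and the call ended without any 1 of the untreated arrays or 0.1% replicates 3, 4 and 5 (adjusted p up to 0.124). That of the phosphorylase kinase subunit Phkb, lower at an adjusted p of 0.045, ended without untreated replicate 2, 3, 4 or 5 or 0.1% replicate 3, 4 or 5 (adjusted p up to 0.118). The insulin receptor Insr (0.22 ± 0.15) was not called, nor was the insulin receptor substrate Irs2 at signals of 15.1 ± 6.74 and 20.97 ± 17.02.

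Amino acid breakdown and the urea cycle, which turns the freed nitrogen into urea, held 24 higher of 38 genes and none lower (median 0.52, and 16 higher without 0.1% replicate 4). Argininosuccinate lyase Asl, a urea cycle enzyme, read 1483, 1457, 1157, 1476 and 1207 in untreated and 3490.5, 4758, 4781, 5401 and 5869 in 0.1% livers (3.52-fold, adjusted p = 4.58e-06). The lowest 0.1% liver was more than 2 times the highest untreated liver. Ornithine aminotransferase Oat read 2617, 2449.8, 1984, 2503 and 2223 and 5218, 10122, 7657, 11074 and 8553 (3.504-fold, adjusted p = 4.58e-06). The aspartate aminotransferase Got1 read 1203, 849.9, 726, 1037 and 568 and 3054, 3999.8, 4045, 3998 and 5993 (4.79-fold, adjusted p = 7.17e-05), the largest rise of these enzymes.

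The same direction held for alanine aminotransferase Gpt (2.17-fold), the arginine transporter Slc7a2 (2.75-fold), the methionine enzyme Mat1a (2.67-fold) and the phosphoethanolamine lyase Etnppl (2.51-fold), all called with no overlap. Mat1a was highest in 0.1% replicate 4, the array with bright abundant transcripts, at 14518 against 6683 to 9756 in the others. Cps1, the first enzyme of the urea cycle, was called at an adjusted p of 0.0415 with a difference of 0.38. That difference was 0.24 without 0.1% replicate 4, and the call ended without any 1 of the untreated arrays or 0.1% replicates 2, 3 and 4 (adjusted p up to 0.109).

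Genes that burn fatty acids were higher. Of 31 genes of fatty acid oxidation and ketogenesis 18 were higher and 2 lower (median 0.37), with 11 higher without untreated replicate 1, 0.1% replicate 4 or 0.1% replicate 5. The list median was 0.01 in replicate 1 and 0.35, 0.43, 0.56 and 0.62 in replicates 2 to 5. The separate list of fatty acid uptake and lipid droplets held 7 higher and 3 lower of 28 genes (median 0.19). Its fatty acid receptor Cd36 read 72.9, 74.9, 83.8, 129.8 and 69.4 in untreated and 352, 537, 437, 512 and 762 in 0.1% livers. Cd36 was 5.19-fold higher (adjusted p = 5.41e-07), and here replicate 1 stood well clear of the untreated livers. The beta-oxidation enzyme Hadha read 1338, 1472, 1299, 1491 and 1398 and 1593, 1856, 1887, 1890.5 and 2136 (1.33-fold, adjusted p = 0.00316). Acads, which starts the breakdown of short chains, rose 1.399-fold, with 1028 in replicate 1 and 1290 to 1365 in the other 4.

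The carnitine enzymes Cpt1a and Cpt2, which bring fatty acids into mitochondria, rose by 0.53 and 0.67 with their brightest probe sets, but by 0.03 and 0.27 with the mean of probe sets, where neither was called (adjusted p = 0.942 and 0.108). Acyl-CoA thioesterases Acot3 (6.27-fold) and Acot4 (2.29-fold) rose with no overlap. The nuclear receptor Ppara, which controls many of these genes, was not called (-0.09, adjusted p = 0.589, and 0.06 by the mean of probe sets). Fgf21, a fasting hormone that PPAR alpha is known to induce, went the other way, with 169, 199.7, 137, 221 and 165 in untreated and 56.001, 73.6, 38.3, 47.3 and 35.3 in 0.1% livers (-1.57 ± 0.34, adjusted p = 0.00361). All 5 diabetic values lay below all untreated ones. In the tricarboxylic acid cycle 7 of 20 genes were higher and none lower, 4 without untreated replicate 1 or 0.1% replicates 4 or 5. Fumarase Fh1 (1.71-fold), Ogdh (1.65-fold) and Idh2 (2.14-fold) were among them.

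Fatty acid and sterol synthesis separated the mice of the 0.1% group. For Me1, as for Cyp4a14 and Sult1e1, a like spread was seen in the other diabetic groups. Me1 read 3636, 1631, 801, 921 and 641 in 0.1% livers. It read 2867, 859, 773, 620 and 698 in STZ livers and 499, 3401, 1068, 2078 and 777 in 0.5% livers. Of 20 fatty acid synthesis genes 1 was higher and 1 lower (median -0.30), and without 0.1% replicate 1 there were 5 lower. Fatty acid synthase (Fasn) read 1361, 1194, 1201, 1653 and 1101 in untreated and 3252, 1008, 637, 791 and 204 in 0.1% livers. Replicate 1 exceeded every untreated liver, replicate 5 was far below the lowest, and the mean difference of -0.66 ± 0.57 was not called (adjusted p = 0.471). The desaturase Scd1 read 10866, 11509, 12801, 12809.5 and 13063 and 12327, 9615, 4177, 6734 and 1237, and its difference of -1.20 ± 0.62 was not called either (adjusted p = 0.195). Srebf1, the transcription factor of this pathway, had a difference of -0.14, which turned to 0.20 without 0.1% replicate 5. The desaturase Fads2 did rise, 1.55-fold (adjusted p = 0.0082).

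The sterol genes varied among the same mice. Of 21 genes of cholesterol synthesis and uptake 6 were lower and 1 higher (median -0.65), and the number lower was 13 without 0.1% replicate 1, 2 without 0.1% replicate 3 or 4, 1 without 0.1% replicate 5, and 2 or 3 without untreated replicate 1, 2, 3 or 5. Idi1, an isomerase of the mevalonate pathway, read 842, 950.1, 823, 747 and 720.3 in untreated and 636, 443, 134, 207 and 45.7 in 0.1% livers (-1.86 ± 0.50, adjusted p = 0.0139). All 5 were below the untreated livers, from 636 in replicate 1 to 45.7 in replicate 5. Hmgcs1, an early enzyme of the same pathway, read 2054, 2568, 2505, 2597 and 2106 and 2388, 1428, 681, 752 and 528. Replicate 1 lay within the untreated range, and the call (adjusted p = 0.0203) ended without 0.1% replicate 3, 4 or 5 (adjusted p up to 0.0688). The list medians per liver were 0.21, -0.18, -1.15, -0.78 and -1.23.

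**Figure D4:**
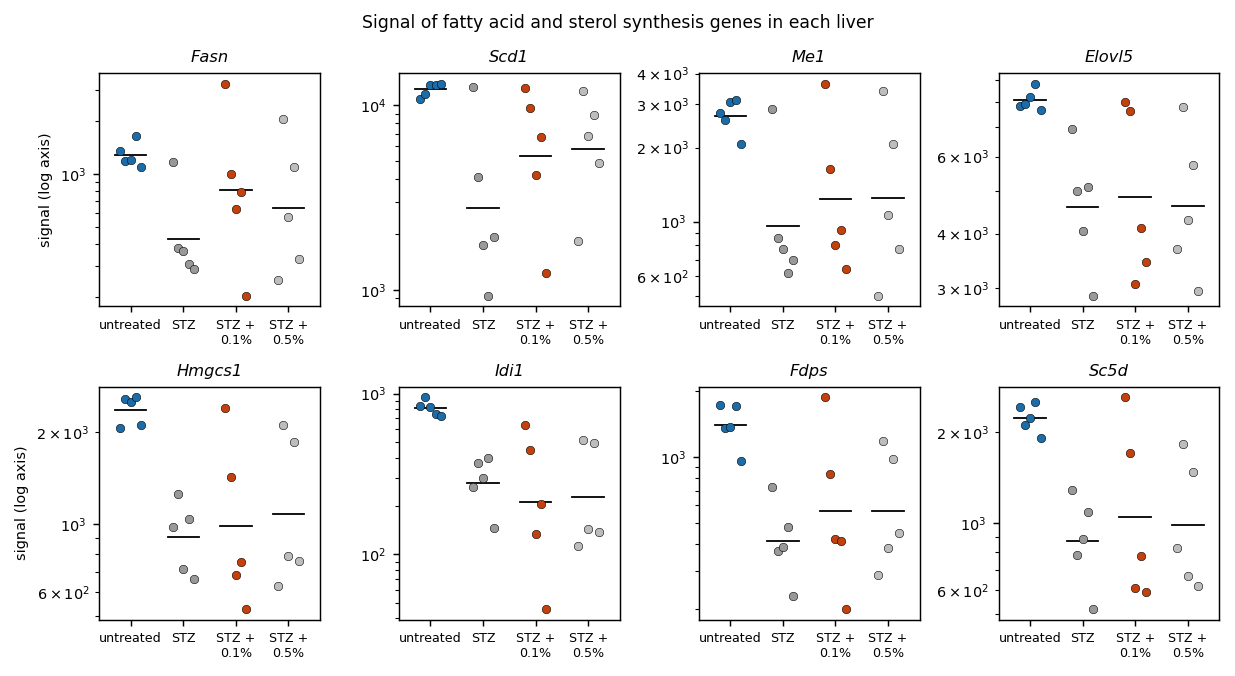
Signal (y axis, log scale) of 4 fatty acid synthesis genes (top) and 4 sterol synthesis genes (bottom), picked with their values known, in each liver of the 4 groups, in the order of replicate 1 to 5, with the horizontal line at the mean of log2(signal + 16) turned back to signal. The orange points of the STZ plus 0.1% phloridzin group span from above the untreated livers to far below them for Fasn (3252 to 204).

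Bile acid synthesis and transport, which removes cholesterol, held 11 higher and 3 lower of 24 genes (median 0.19). Lower calls fell to 1 without untreated replicate 1 or 0.1% replicates 3, 4 or 5. Cyp7a1, the rate-limiting enzyme, read 139, 145, 138, 37.8 and 99.1 in untreated and 155, 218, 803, 689 and 803 in 0.1% livers. Replicates 1 and 2 were just above the untreated range and the other 3 far above it (3.801-fold, adjusted p = 0.0104). Akr1d1, which reduces the bile acid precursor, rose 2.04-fold (adjusted p = 5.2e-05). The sterol exporters Abcg5 (1.91-fold) and Abcg8 (1.74-fold), which form 1 pump, rose together, as did the phospholipid exporter Abcb4 (1.503-fold) and the basal exporter Abcc3 (2.83-fold). In every one of these 4 the groups did not overlap.

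The circadian clock differed between the groups in 13 of 23 genes, 9 higher and 4 lower. The clock is a loop in which ARNTL and CLOCK switch on repressors and output genes through the E-box, and the output factors DBP, TEF and HLF and their opponent NFIL3 act through the D-box. The output factor Dbp read 65.8, 123, 83.5, 138 and 302 in untreated and 615, 1006, 1079, 1109 and 1074 in 0.1% livers (6.899-fold, adjusted p = 7.72e-06). Even replicate 1, the lowest, was above 2 times the highest untreated liver. Tef rose 2.67-fold, the receptor Nr1d2 2.41-fold and the kinase Wee1 3.32-fold. Nfil3 fell, with 464, 421, 454, 465 and 396 in untreated and 262, 142, 136, 149.5 and 140.1 in 0.1% livers (-1.36 ± 0.19, adjusted p = 0.000102).

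The activators were lower. Arntl read 167, 114, 118, 185 and 138 in untreated and 64.4, 67.1, 34.8, 36.6 and 16.998 in 0.1% livers, with a difference of -1.48 by the brightest probe set and -0.70 by the mean of probe sets. Clock fell by 0.65 (adjusted p = 0.00672) and Npas2, its close relative, from 35.8 ± 9.78 to 6.17 ± 4.75. Usp2 rose from 22.3 ± 13.6 to 401 ± 280.3, with 94.8, 99.1, 653, 542 and 615 in the single livers. Replicates 1 and 2 again formed the low pair. The hour at which each mouse was killed is not given, so phase and level of the rhythm cannot be told apart. Per3 rose from 8.44 ± 7.42 to 49.99 ± 17.7. Its log2 difference was 1.44 by the brightest probe set and 0.62 by the mean of its probe sets (adjusted p = 0.00173).

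Of the 23 clock genes 19 had a promoter sequence in RefSeq (GRCm38.p6, 250 bases before to 50 after the gene start). The E-box letters CACGTG, which read the same on both strands, stood in 5 of the 19 against 7.15% of 32851 promoters, and the D-box letters TTATGTAA, searched on both strands, in 1 of 19 against 0.938%. A gene counted if any of its promoters held the letters, whereas the percentages count single promoters, so these shares are not matched. Ciart, a clock repressor picked here for its promoter, rose from 4.44 to 126 in mean signal (adjusted p = 0.000368). It held 3 E-boxes, 116, 58 and 44 bases before the start, a number that 0.0883% of promoters reach or pass. Per3 held 2 D-boxes, 205 and 158 bases before the start. Their promoters (chr3:95882199-95882478 and chr4:151044636-151044915, both minus strand, 250 bases before to 30 after the start) are shown 5′ to 3′ for these elements, which are in capitals. A match of letters shows no binding.
Ciart: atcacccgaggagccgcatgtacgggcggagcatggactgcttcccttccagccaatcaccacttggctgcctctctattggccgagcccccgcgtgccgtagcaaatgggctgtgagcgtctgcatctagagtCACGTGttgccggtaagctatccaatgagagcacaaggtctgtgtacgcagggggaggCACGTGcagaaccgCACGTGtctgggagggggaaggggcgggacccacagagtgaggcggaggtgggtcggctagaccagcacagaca
Per3: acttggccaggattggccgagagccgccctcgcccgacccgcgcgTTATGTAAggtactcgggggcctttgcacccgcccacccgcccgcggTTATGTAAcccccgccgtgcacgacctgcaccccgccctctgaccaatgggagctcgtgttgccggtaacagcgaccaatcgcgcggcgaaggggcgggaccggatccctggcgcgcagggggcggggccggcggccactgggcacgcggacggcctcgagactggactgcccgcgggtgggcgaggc

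Glucocorticoid targets and metallothioneins, which respond to stress steroids and metals, held 10 higher and 2 lower of 22 genes (median 0.55), and the lower count was 1 without any 1 of the untreated arrays or 0.1% replicates 3, 4 and 5. Metallothionein 1 (Mt1), which binds zinc, read 146, 172, 255, 176 and 213 in untreated and 958, 2335, 7235, 7723 and 8511 in 0.1% livers, 19.8-fold higher (adjusted p = 0.000597). Replicate 1 was lowest, yet at more than 3 times the highest untreated liver, and the log2 difference was 4.30 by the brightest probe set and 3.47 by the mean of its probe sets. Mt2 read 41.3, 73.4, 99.7, 79.2 and 60.7 and 294, 652, 2462, 2139 and 3241, 15.3-fold higher (adjusted p = 0.00229), again lowest in replicates 1 and 2. Fkbp5, a glucocorticoid-induced chaperone of the steroid receptor, read 128, 129.6, 163, 137 and 133 and 264, 247, 937, 672 and 979 (3.54-fold, adjusted p = 0.00712). Replicates 1 and 2 lay at 264 or less and the other 3 at 672 or more. The iron-binding acute phase protein Lcn2 rose 2.64-fold (adjusted p = 0.00819).

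Metal response elements, whose core is TGCGCNC or TGCACNC, stood 3 times in the Mt1 promoter and 4 times in the Mt2 promoter on either strand. In both promoters at least 1 of these cores lay after the annotated start. Across all 32851 promoters 25.7% held at least 1 and 1.97% at least 3. The genes are neighbours on chromosome 8, and both promoters are shown because both genes rose in every 0.1% liver. The stretches are chr8:94178839-94179118 for Mt1 and chr8:94172368-94172647 for Mt2, plus strand, RefSeq GRCm38.p6, 250 bases before to 30 after the start, with the cores in capitals.
Mt1: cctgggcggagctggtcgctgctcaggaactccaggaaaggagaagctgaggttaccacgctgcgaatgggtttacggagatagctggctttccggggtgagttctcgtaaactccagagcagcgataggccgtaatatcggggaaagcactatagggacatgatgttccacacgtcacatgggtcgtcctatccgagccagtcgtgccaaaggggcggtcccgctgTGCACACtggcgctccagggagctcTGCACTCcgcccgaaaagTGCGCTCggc
Mt2: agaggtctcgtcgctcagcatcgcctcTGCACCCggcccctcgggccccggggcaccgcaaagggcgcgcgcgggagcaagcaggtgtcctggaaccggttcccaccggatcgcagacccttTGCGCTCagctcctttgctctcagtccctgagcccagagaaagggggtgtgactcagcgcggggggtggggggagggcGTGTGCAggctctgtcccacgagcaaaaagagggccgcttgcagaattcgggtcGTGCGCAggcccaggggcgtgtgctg

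Detoxifying enzymes were higher: 14 of 27 genes of xenobiotic metabolism (median 0.40) and 14 of 32 of oxidative stress defence (median 0.30), with none lower. Without 0.1% replicate 4 both counts were 10. Epoxide hydrolase Ephx1 read 1485, 1777, 1489, 1785 and 1696 in untreated and 4090.2, 4496, 5139.7, 4929 and 4446 in 0.1% livers (2.79-fold, adjusted p = 1.12e-08). Its lowest 0.1% liver was above 2 times the highest untreated liver. The glutathione transferase Gsta2 read 191, 262, 338, 293 and 345 and 709.8, 1291, 2127, 1963 and 2914 (5.53-fold, adjusted p = 3.71e-05) and varied more among the diabetic livers. Gstt2 rose 3.06-fold. The drug-sensing receptors Nr1i3 (1.78-fold, adjusted p = 0.00134) and Nr1i2 (1.59-fold, adjusted p = 0.00445) rose with no overlap.

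Genes of protein folding in the endoplasmic reticulum were lower, 16 of 34 against 2 higher, with a median of -0.48. Syvn1, a ubiquitin ligase for misfolded proteins, read 1007, 705, 815, 628 and 915 in untreated and 431, 395, 456, 404 and 340.0 in 0.1% livers (-0.97 ± 0.19, adjusted p = 0.00181). The transcription factor Xbp1, which drives this programme, read 4040.4, 3682, 3698, 3419 and 4023 and 2833, 2344, 2714, 2206 and 1520.2 (-0.73 ± 0.16, adjusted p = 0.00449). Neither gene overlapped between the groups, and replicate 1 was as low as the others for Syvn1. The endoplasmic reticulum proteins Manf and Sdf2l1 fell by 1.11 and 1.46, and the chaperone Dnajb9 by 0.93. The higher calls were 1 without untreated replicates 1, 2 or 3 or 0.1% replicates 2 or 4.

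Plasma proteins divided. Of 32 acute phase and complement genes 6 were higher and 7 lower (median 0.05), and without 0.1% replicate 4 the median was -0.05, with 4 higher and 5 lower. The terminal complement genes C8a (from 5789 ± 558 to 2774 ± 993), C8b and C9 fell by 1.13, 1.04 and 1.23, joining C6, and none overlapped. The lectin Mbl2, which starts another complement route, read 4471, 3345, 4102, 4092 and 3953 in untreated and 8236, 9225, 8015, 14257 and 6899 in 0.1% livers (2.27-fold, adjusted p = 1.58e-05). Replicate 4 was the highest of its group, and the other 4 were also all above the untreated livers. The protease inhibitor Serpina3n rose 1.49-fold.

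Markers of the other cells of the liver were looked at in the same way, and in whole liver RNA fewer cells of a type cannot be told apart from less RNA per cell. Of 8 measured genes of MHC class II, by which immune cells present antigen, 4 were higher (median 0.47), and their summed signal was 619 to 744 in untreated and 850.4 to 1671 in 0.1% livers. The class II chain H2-Aa read 158, 145, 169.6, 183 and 146 in untreated and 386, 439.8, 378, 338 and 233 in 0.1% livers (2.07-fold, adjusted p = 0.00103). Cd74 (1.87-fold) and H2-Eb1 (1.77-fold) rose with it, and replicate 5 was the lowest diabetic liver for all 3 genes. Kupffer cell and macrophage markers were higher in 2 of 14, with sums of 3645 to 4432 and 3645 to 5647, and that count was 1 without any of untreated replicates 1, 3 and 4 or 0.1% replicates 1, 2 and 5. Their part in the class II result was not tested.

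Stellate cell and collagen genes, which make scar tissue, were lower in 4 of 15, with sums of 2931 to 4363 and 2177 to 3395. The receptor Pdgfrb read 75.6, 89.1, 105, 124 and 108 in untreated and 63.4, 61.9, 36.9, 25.04 and 45.1 in 0.1% livers (-0.92 ± 0.20, adjusted p = 0.00374). Collagen Col3a1 read 544, 494, 785, 1005 and 739 and 517, 434, 136, 209.7 and 208 (-1.32, adjusted p = 0.00812), with replicates 1 and 2 inside or near the untreated range.

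The antibody joining chain Jchain of plasma cells fell from 58.5 ± 7.197 to 27.96 ± 9.57 (adjusted p = 0.000995). The antibody heavy chain Ighm read 417, 324, 409, 296 and 326 and 286, 151, 66.4, 76.5 and 44.01, 3.11-fold lower with no overlap (adjusted p = 0.00106), and the fall was smaller by the mean of its probe sets (-0.30). These were 2 of 7 B and plasma cell genes, whose sums were 436 to 574 and 127 to 408. Of 3 erythroid genes 1 was lower, the heme enzyme Alas2 of red cell precursors, at 1443, 1294, 1327, 1258 and 1313 in untreated and 1098, 575, 234, 361 and 125 in 0.1% livers (3.46-fold, adjusted p = 0.0204). The erythroid sums were 1311 to 1494 and 164 to 1140.3, and the call of Alas2 ended without 0.1% replicate 3 or 5 (adjusted p up to 0.0701). Of 4 cholangiocyte genes 1 was lower, Sox9 at signals of 21.2 ± 2.84 and 11.7 ± 3.53 (adjusted p = 0.0308), a call that ended without untreated replicate 1, 4 or 5 or 0.1% replicate 2 or 5 (adjusted p up to 0.0764). Of 10 periportal hepatocyte genes 5 were higher and 2 lower, with 2 or 3 higher without any 1 of untreated replicates 1, 2, 3 and 5 or 0.1% replicates 2 to 5. The lower count was 1 without untreated replicate 1, 4 or 5 or 0.1% replicate 2 or 5. Of 13 pericentral genes 4 were higher and 2 lower, 1 lower without 0.1% replicate 5. The part of these cell types in the other results was not tested. Of 11 sinusoidal endothelium genes 1 was called, Lyve1 (2.05-fold higher). None of 9 hepatocyte, 5 neutrophil, 3 T and NK cell, 6 kidney and adrenal, 2 muscle and 1 adipocyte markers was called. Of the pancreas list only the elastase gene Cela1 was measured, falling from 1611 ± 184 to 559 ± 269, and the defining pancreatic enzymes did not pass the filter on low signal.

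Interferon-stimulated genes, 5 higher of 25, were higher by list median in replicates 1 and 2 (0.65 and 0.64) than in replicates 3 to 5 (-0.06, 0.09 and -0.33), the opposite of the fatty acid oxidation list. The deubiquitinase Usp18 read 113, 137, 115, 90.5 and 100.4 in untreated and 364, 374, 199.8, 264 and 414 in 0.1% livers (2.61-fold, adjusted p = 6.19e-05). Ifi27 read 1400.3, 1231, 1136, 981 and 957 and 2686, 2852, 1566, 2073 and 1441 (1.7999-fold, adjusted p = 0.0183). Both groups were separate for each gene, and Ifi27 was highest in replicates 1 and 2.

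Set against the diabetic mice without phloridzin, the 0.1% livers differed in no gene at an adjusted p under 0.05 (0 of 12941, 0%). At an unadjusted p under 0.05 there were 685 genes (5.29%), and the smallest adjusted p by limma was 0.921. Against 0.5% phloridzin, a matched diet and time at 5 times the dose, 0 genes (0%) were called, 840 (6.49%) had an unadjusted p under 0.05, and the smallest adjusted p was 0.606. This does not show that the diets act alike, as the intervals are wide for genes that vary between diabetic mice. For Nnmt the difference from STZ was -0.43 (95% interval -1.40 to 0.55) and from 0.5% -0.04 (-1.02 to 0.93), where the difference from untreated was 5.01. For Hsd3b5 the interval against STZ ran from -2.72 to 2.60. The comparisons of the 3 diabetic groups with untreated livers share the same 5 untreated arrays, and gave 1785 (13.8%), 2168 (16.8%) and 1646 (12.7%) called genes for STZ, 0.1% and 0.5%.

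**Figure D5:**
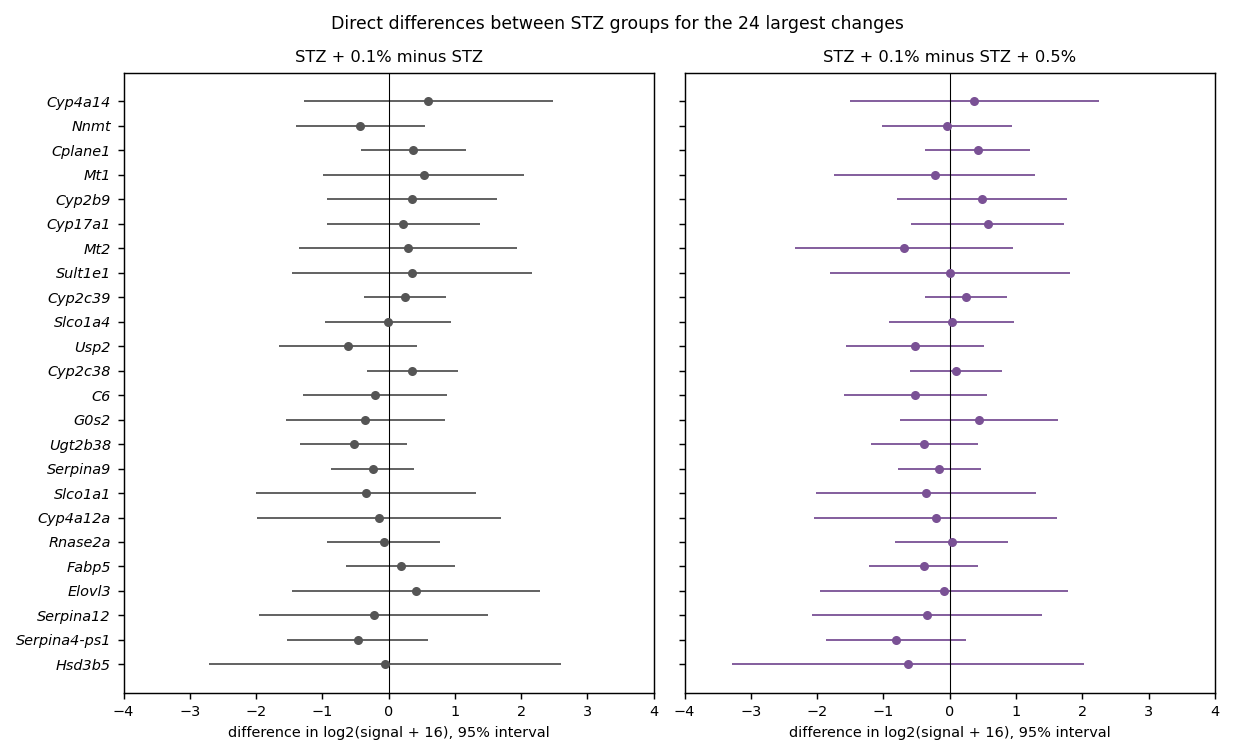
Difference in log2(signal + 16) between STZ plus 0.1% phloridzin and STZ (left) and between STZ plus 0.1% and STZ plus 0.5% phloridzin (right). The genes are the 12 largest rises and 12 largest falls against untreated among called genes without overlap. The 95% intervals are not adjusted for the number of genes. All intervals include 0, and that of Hsd3b5 is the widest on both sides.

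Among genes called against untreated, the smallest p against STZ belonged to the zinc finger gene Zfp931, with means of 90.8 in untreated, 50.4 in STZ and 36.3 in 0.1% livers (difference from STZ -0.66, 95% interval -0.97 to -0.35, adjusted p = 0.921). Sntb2, a syntrophin of the membrane skeleton, had means of 6.48, 26.5 and 36.9 in the same order (difference from STZ 0.70, adjusted p = 0.921). Atf7, 2610524H06Rik and Piga came next, each with a mean below that of STZ livers and an adjusted p of 0.921. Cyp7a1 had a difference from STZ of -1.14 (unadjusted 95% interval -2.16 to -0.12, adjusted p = 0.921). Scd1 and Fasn lay 0.93 (-0.35 to 2.22) and 0.89 (-0.30 to 2.08) above STZ livers, and both intervals include 0. Against 0.5% phloridzin, among genes called against untreated, the smallest p belonged to the muscle cytochrome oxidase subunit Cox6a2 at signals of 5.14 in 0.1% and 18.6 in 0.5% livers (adjusted p = 0.609), followed by 2610524H06Rik, Chsy1, Zfp574 and Tex10 (adjusted p = 0.752).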

How the data were processed

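Liver RNA was labelled by the Affymetrix One-Cycle method, per the labels' protocols. The authors deposited an intensity per probe set, a linear signal with a mean of 100 on every array once 2% of probe sets at either end were trimmed. The sources used here do not name the software behind it. Although the comparison was defined in log2, the deposited values were linear, and log2(signal + 16) was taken here. Of 45101 probe sets 34945 named 1 gene, 932 named several, 9160 named none and 64 were controls. The probe set with the highest mean stood for each of 18193 genes, and 12941 genes passed the 40th percentile of mean log2 values (signal 8.49). Means of all 4 groups were fitted with limma 3.58.1 in R 4.3.3, two-sided, with 16 residual and 4.56 prior degrees of freedom. Other analysis used Python 3.11.15 and matplotlib 3.10.9, and the fit was tested on simulated data.

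The comparison, gene lists and naming rule were chosen with earlier results of these data known. The rule named the 12 largest called rises and falls without overlap, up to 6 called members per list and direction by p, a panel of 25 genes, and the 5 smallest p against each other STZ group. Replicates were separate mice, and their number of 5 per group limits the precision.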

Additional observations from a re-analysis of the deposited data

Results flagged for a closer look

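In 142 results, 137 genes named in the text and 5 control transcripts, each group of 5 arrays was searched for an array far from the other 4, by its gap to the nearest one as a share of the group's range. Of 284 groups 13 exceeded the 95% critical value of Dixon's test. Chance alone gives about 1 in 20, so the flags were no more in number than chance gives. In the 0.1% group, replicate 1 lay apart for Cpt2 (gap share 0.958, 974 against 1402 to 1424), Acads (0.801, 1028 against 1290 to 1365) and Dbp (0.833, 615 against 1006 to 1109), each on the side of the untreated livers. For Nfil3 the same liver read 262 against 136 to 149.5 (0.857). Replicate 4 lay apart for the control transcripts bioB (0.776, 1404 against 233 to 348), bioC (0.739, 1502 against 312 to 470.5) and bioD (0.776, 14067 against 3173 to 4431).

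Among the untreated arrays, replicate 1 lay apart for Igfbp2 (0.911, 765 against 1213 to 1269) and Sdf2l1 (0.749, 481 against 226 to 274). Replicate 2 lay apart for Sult1e1 (0.870, 8.62 against 0.560 to 1.43), near background. Single gaps were found for Fkbp5 (0.725, replicate 3 at 163), Gstt2 (0.720, replicate 4 at 626) and bioC (0.750, replicate 5 at 445).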

How the results depend on the processing

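Counts of called genes stayed within 1.5 times of 2168 under 11 of the 12 ways of processing that kept all arrays, between 1838 and 2691; a required change of over 1.5-fold left 82 genes, 61 higher and 21 lower. Without 1 array the counts were 1493 to 2619 in all, 721 to 1168 higher and 772 to 1451 lower, 772 without 0.1% replicate 5. Among values of named genes under these alternatives 4545 kept direction and call, 585 lost the call and 7 reversed. The reversed values were Igf1 (0.12 to -0.026), Mup3 (0.60 to -0.18) and Ppara (-0.09 to 0.057) by the mean of probe sets, Irs2 (0.13) with a pseudocount of 1 (-0.016) or without 0.1% replicate 3 (-0.029) or 5 (-0.041), and Srebf1 (-0.14 to 0.20) without 0.1% replicate 5. Over all arrays left out in turn, Irs2 ran from -0.041 to 0.34 and Srebf1 from -0.31 to 0.20. The cause was not tested. For genes near background the size depends on the pseudocount: Sult1e1 differed by 6.37 with 1 and 2.34 with 64. The 0 calls against STZ and against 0.5% held in the 20 alternatives in which they were computed.

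Replicate numbers are shared between groups. Only 1 of 5 same-numbered pairs correlated above 0.1, and 2 of 5 arrays correlated best with their own number, so the numbers were not taken as a pairing. With a replicate block 2368 genes were called, 1110 higher and 1258 lower, 2086 of them shared with the fit without it.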

Other observations

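Of 17 genes of tryptophan breakdown and NAD 5 were higher and 1 lower. Nampt, which recycles nicotinamide into NAD, read 118, 137, 101, 121 and 121 in untreated and 223, 215, 713, 410.2 and 634 in 0.1% livers (3.01-fold, adjusted p = 0.00753 by limma). Replicates 1 and 2 formed the low pair, and all 5 were above the untreated livers. Naprt, which makes NAD from nicotinic acid, rose 1.32-fold. Alas1, the first enzyme of heme synthesis, read 459.7, 623, 836, 711 and 448 and 916, 677, 5768, 5821 and 3732. Replicate 2 lay within the untreated range and replicates 3 to 5 far above it. Its adjusted p was 0.0156, and 0.0513 without 0.1% replicate 4. Of 20 heme and iron genes 5 were higher, and 3 without 0.1% replicate 4 or 5.

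In thyroid hormone handling 1 of 9 genes was called. The deiodinase Dio1, which activates the hormone in liver, fell from 135 ± 33.4 to 19.4 ± 8.37 in mean signal (SD, n = 5; adjusted p = 0.000261), with 30.8, 24.8, 15.004, 16.4 and 9.799 in the single livers and no overlap. Of 20 apolipoprotein and lipoprotein genes 4 were higher and 3 lower. Lcat, which esterifies cholesterol in plasma, rose 1.54-fold (adjusted p = 0.00219). Lpin1, a phosphatase of fat synthesis that fasting induces, read 196, 135, 314, 213 and 178 and 395, 287, 1209.7, 939 and 1191, overlapping the untreated range in replicate 2. Its adjusted p was 0.0187, and the call ended without 0.1% replicate 3 (0.054) or 0.1% replicate 5 (0.0577).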
